A study of Mus musculus with 10 samples.

Results

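Long H3K27me3 domains were taken as the stretches of the genome where a broad H3K27me3 region of at least 10 kb had been called in mouse duodenal organoids kept in ENRI or in WENRC medium. Every broad region at least 10000 bp long was taken from the lists of both media, and long regions that shared at least 1 bp were merged into 1 domain. This gave 577 domains from 867 long regions, out of 11103 broad regions in all. The long regions were 381 of the 6094 broad regions in ENRI (6.25%) and 486 of the 5009 in WENRC (9.70%). The domains covered 15.05 Mb of build mm9. They were chosen by region length in the deposited lists, so the lengths, tags and enrichments below are a description of the chosen regions, and no test was made on them.

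Organoids were grown from mouse duodenum in Matrigel. The ENRI cultures, which the labels call enterocyte, received EGF, Noggin, R-spondin and IWP-2, an inhibitor of Wnt secretion, and neither Wnt3A nor CHIR-99021. The WENRC cultures, which the labels call intestinal stem cell, received EGF, R-spondin and Noggin too, with Wnt3A added and with CHIR-99021, an inhibitor of the kinase GSK3 that switches on Wnt signalling. The H3K27me3 ChIP-seq data are 1 library for each medium, with regions called against input DNA of that medium. Global run-on sequencing (GRO-seq), which reads RNA as it is being made, gave 2 libraries for each medium, numbered here by the batch in the authors' file header. The sample titles name mouse 1 and mouse 2 in each medium, and which batch is which mouse is not stated. Strain, sex and age of the mice, and whether the ChIP chromatin was pooled, are not given in the sources used here. The markers of the labelled cell types followed the media, apart from the enterocyte gene Lct. The stem cell gene Lgr5 had 0.194 and 0.142 RPKM in ENRI, against 1.96 and 2.86 RPKM in WENRC. The summed level of 7 enterocyte genes was 533 and 719 RPKM in ENRI, against 36.4 and 12.7 RPKM in WENRC. Most of the ENRI sum came from Apoa1 (170 and 266 RPKM) and Apoa4 (254 and 286 RPKM). Lct had 0.273 and 0.366 RPKM in ENRI, against 0.265 and 0.278 RPKM in WENRC, so its media overlapped. The cultures are mixtures of cells, so fewer cells of a type and less RNA per cell cannot be told apart in any level below.

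H3K27me3 is the trimethyl mark on histone H3 that Polycomb repressive complex PRC2 writes and that PRC1 can bind. In mouse cells it is found over CpG-rich promoters of developmental genes that are transcribed little or not at all, and where many such genes lie side by side it can form blankets that run past single promoters. In the intestinal epithelium PRC2 is known for keeping the genes of other tissues and other stages of development silent. The series title concerns PRC2 in the balance of the intestine.

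Promoter sequences of 6 genes with a transcription start site (TSS) inside a domain are shown, because these genes stand for the range of transcription found there: Hmx3 and Foxd1, developmental homeobox and forkhead factors with almost no reads, Wnt4, a secreted signal, and Celsr3, an adhesion receptor of the cadherin family, which had higher values in ENRI, Shmt2, a mitochondrial enzyme of serine and glycine metabolism, which had lower values in ENRI, and Slc26a10, a member of an anion transporter family and the domain gene with the highest mean level in ENRI. Each window runs from 250 bases before to 50 after the start, 5′ to 3′ on the gene's strand, from RefSeq (GRCm38.p6), and capitals mark every CG dinucleotide, the letters searched for. The windows lie at chr7:131542713-131543012 (plus strand) for Hmx3, chr13:98353995-98354294 (plus) for Foxd1, chr4:137277385-137277684 (plus) for Wnt4, chr9:108825795-108826094 (plus) for Celsr3, chr10:127522395-127522694 (minus) for Shmt2 and chr10:127180533-127180832 (minus) for Slc26a10.
Hmx3: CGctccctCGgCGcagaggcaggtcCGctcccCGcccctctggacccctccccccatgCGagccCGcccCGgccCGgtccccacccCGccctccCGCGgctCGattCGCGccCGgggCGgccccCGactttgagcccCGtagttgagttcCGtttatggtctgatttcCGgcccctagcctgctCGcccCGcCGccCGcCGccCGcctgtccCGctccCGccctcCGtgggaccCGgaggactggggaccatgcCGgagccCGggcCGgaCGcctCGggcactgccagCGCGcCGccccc
Foxd1: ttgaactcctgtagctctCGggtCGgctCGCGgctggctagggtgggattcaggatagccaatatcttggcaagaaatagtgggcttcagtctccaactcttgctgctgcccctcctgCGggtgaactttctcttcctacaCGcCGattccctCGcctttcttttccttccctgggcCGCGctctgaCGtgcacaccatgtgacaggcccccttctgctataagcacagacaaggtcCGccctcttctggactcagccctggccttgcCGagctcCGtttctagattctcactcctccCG
Wnt4: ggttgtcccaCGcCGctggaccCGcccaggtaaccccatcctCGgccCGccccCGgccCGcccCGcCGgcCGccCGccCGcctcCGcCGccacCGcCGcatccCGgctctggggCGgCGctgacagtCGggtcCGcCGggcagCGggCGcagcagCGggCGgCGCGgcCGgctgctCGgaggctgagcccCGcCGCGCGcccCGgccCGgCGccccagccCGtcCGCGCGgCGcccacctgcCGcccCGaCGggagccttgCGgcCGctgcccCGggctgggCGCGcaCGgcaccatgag
Celsr3: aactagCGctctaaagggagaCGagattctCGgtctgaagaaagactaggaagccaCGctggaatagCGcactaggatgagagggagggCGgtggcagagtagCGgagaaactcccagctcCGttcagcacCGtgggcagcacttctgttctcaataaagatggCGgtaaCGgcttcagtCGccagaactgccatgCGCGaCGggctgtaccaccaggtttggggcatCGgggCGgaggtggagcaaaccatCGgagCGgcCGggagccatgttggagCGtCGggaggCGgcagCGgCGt
Shmt2: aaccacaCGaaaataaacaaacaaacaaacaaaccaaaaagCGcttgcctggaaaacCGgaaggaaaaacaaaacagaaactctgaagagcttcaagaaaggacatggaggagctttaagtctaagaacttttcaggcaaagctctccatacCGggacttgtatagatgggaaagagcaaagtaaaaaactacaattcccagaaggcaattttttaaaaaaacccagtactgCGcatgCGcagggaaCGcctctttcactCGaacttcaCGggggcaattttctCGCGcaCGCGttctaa
Slc26a10: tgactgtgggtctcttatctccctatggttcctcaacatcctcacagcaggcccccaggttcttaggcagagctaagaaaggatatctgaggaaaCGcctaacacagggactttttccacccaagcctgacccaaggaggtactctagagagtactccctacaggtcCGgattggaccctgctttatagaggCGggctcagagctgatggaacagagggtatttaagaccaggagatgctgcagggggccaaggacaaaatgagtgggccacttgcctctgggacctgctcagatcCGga

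The CG content of these windows differed widely. Wnt4 held 51 CG dinucleotides, a number reached by 0.715% of the 32851 RefSeq mouse promoter windows of the same length, and Hmx3 held 39, reached by 4.45%. Celsr3 held 25 (reached by 18.4% of windows), Foxd1 15 (34.6%), Shmt2 13 (37.9%) and Slc26a10 4 (68.6%), against a median of 7 over all windows. A window was found for 467 of the 685 genes with a TSS in a domain (68.2%), under the 80% set for a summary, so no CG content is given for the whole set.

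MicroRNA genes were among the domain genes too, 23 in all, of which 20 had a mature sequence in the RefSeq table (GRCm38.p6). The families with members in several domains are shown, with the seed, bases 2 to 8, in capitals.
mmu-miR-9-5p: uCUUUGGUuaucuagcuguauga
mmu-miR-10a-5p: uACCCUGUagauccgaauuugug
mmu-miR-10b-5p: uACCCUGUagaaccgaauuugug
mmu-miR-196a-5p: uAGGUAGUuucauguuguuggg
mmu-miR-196b-5p: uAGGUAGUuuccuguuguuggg
The 5p arm of miR-9 is made from 3 genes, and all 3 lay in separate domains: Mir9-1 at chr3:87994876-88052841, Mir9-2 at chr13:83851503-83885734 and Mir9-3 at chr7:86639024-86663063. Each was listed with 0 reads in all 4 GRO-seq libraries. The Mir9-3 domain had a broad region in WENRC alone, but narrow H3K27me3 regions covered 94.3% of it in ENRI and 96.9% in WENRC. The miR-10 pair shared the seed ACCCUGU. The miR-196 pair, made from 3 genes, shared AGGUAGU. The miR-10 and miR-196 genes lay in the domains over the Hox clusters.

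Most domains were short members of the class, with a tail of very long ones. Their median length was 19612 bp (quartiles 13519 and 30396 bp), from 10015 to 253259 bp. Of the 577, 299 were under 20 kb, 48 reached 50 kb and 8 reached 100 kb. Just under the length limit lay ENRI regions of 9921, 9980 and 9982 bp with 4.50, 4.03 and 5.27-fold enrichment over input, and just over it ENRI regions of 10002, 10015 and 10043 bp with 6.83, 4.05 and 5.08-fold. In WENRC the nearest regions outside were 9970, 9981 and 9989 bp long with 8.91, 4.37 and 4.05-fold enrichment, and the nearest inside were 10029, 10038 and 10057 bp long with 6.92, 6.97 and 4.12-fold. Folds on either side of the limit overlapped in both media. Chromosome 2 carried the most domains, 61 of the 577 (10.6%), and the X chromosome carried 5.

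Few of the broad regions were long, yet they held about as much of the broad sequence as the remaining ones. Long regions made up 48.4% of the bases in broad regions in ENRI and 52.4% in WENRC, and they held 1.81% of all ChIP tags in ENRI and 2.58% in WENRC. Tag density was higher in long than in shorter regions, at a median of 16.9 against 13.5 tags per kb per 10M in ENRI and 20.5 against 14.8 in WENRC. Input density was also higher in the long regions, at 3.64 against 2.92 in ENRI and 3.95 against 3.10 in WENRC. The median fold over input was therefore no higher in long ENRI regions than in shorter ones, 4.55 against 4.81, while in WENRC it was 5.23 against 4.88.

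Long regions were shared by the media in about as many domains as not. A region of at least 10 kb was present in both media in 280 domains (48.5%), in ENRI only in 97 (16.8%) and in WENRC only in 200 (34.7%). Domains long in both were longer, with a median of 24731 bp, against 14634 bp for those long in ENRI only and 14726 bp for those long in WENRC only. With 1 ChIP library per medium no difference between the media can be tested. Intervals on tags cover counting error only and hold no variation between libraries.

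**Figure D1:**
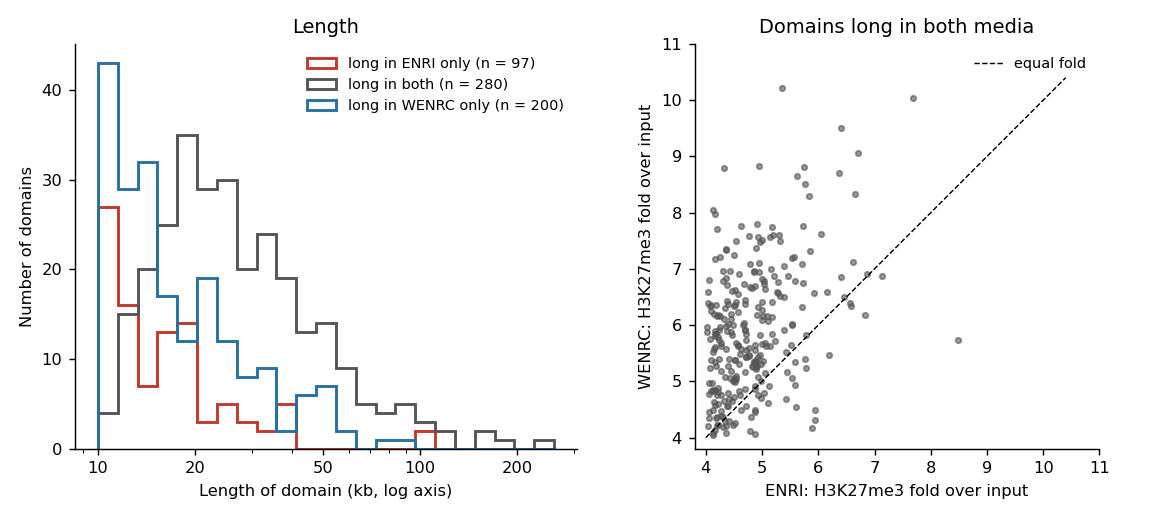
Left, number of domains by length in kb (log axis), as step lines for the 97 domains long in ENRI only, the 280 long in both media and the 200 long in WENRC only. Right, H3K27me3 fold over input in ENRI (x axis) against WENRC (y axis), 1 point per domain long in both, with the line of equal fold; 40 of the 280 points lie on the ENRI side of that line.

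In the domains long in both media, H3K27me3 enrichment was lower in the ENRI library than in the WENRC library. The median fold over input was 4.69 in ENRI, from 4.01 to 8.49, and 5.81 in WENRC, from 4.04 to 10.2, as the plot of fold in the 2 media shows. The fold was higher in ENRI in 40 of the 280 domains (14.3%), against 43.6% of 1474 pairs of shorter broad regions that overlapped between the media. Both lists keep only regions of at least 4-fold over input. Shorter regions held a median of 47 tags in ENRI and 66 in WENRC, against 1029 and 1209 in long ones. What these limits do to the comparison with shorter regions was not tested. Tag density had a median of 17.5 tags per kb per 10M in ENRI and 22.9 in WENRC, a median ratio of 0.778, from 0.5001 to 1.11. The exact 95% counting interval of that ratio lay below 1 in 241 domains, held 1 in 38 and lay above 1 in 1. The ratio was 0.780 in the 98 of these domains that broad regions covered to at least 90% in both media, with 96 of the 98 under 1. Input density was 3.73 in ENRI and 3.98 in WENRC. Over shorter overlapping regions the median density ratio was 0.896 and the median fold ratio 0.972, against a fold ratio of 0.825 in the domains.

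How these ratios read depends on what they are scaled to. Tags in all broad regions were 3.44% of the library in ENRI and 4.45% in WENRC, and when the tags of the domains long in both were scaled to that total the median ratio was 1.01. The long regions themselves supplied 1.81 of the 3.44% in ENRI and 2.58 of the 4.45% in WENRC. The share of tags in narrow regions went the other way, 8.55% in ENRI and 6.99% in WENRC. Whether the lower share of tags in broad regions came with the medium or with the library cannot be told apart with 1 library each.

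**Figure D2:**
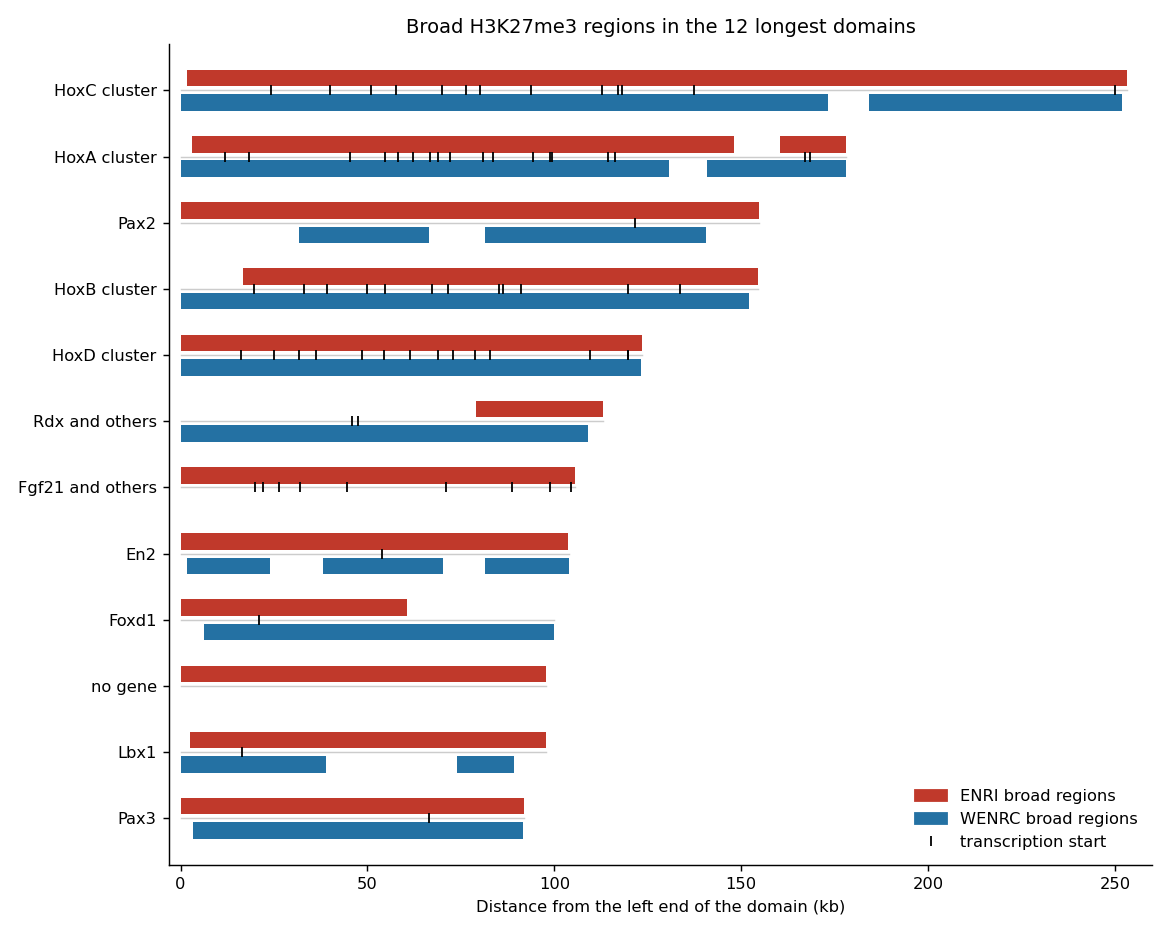
The 12 longest domains, with distance from the domain's left end in kb on the x axis. For each domain the upper bars are broad regions in ENRI, the lower bars broad regions in WENRC and the ticks the transcription starts of genes; the En2 domain has 1 ENRI bar over 3 WENRC bars, and 2 domains have no WENRC bar.

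The 12 longest domains were mostly built around genes of body patterning, as the map of these domains shows. They include the 4 Hox clusters. The HoxC domain was the longest at 253259 bp (chr15:102727334-102980593) with a fold over input of 5.04 in ENRI and 6.78 in WENRC, and the density ratios of the HoxC, HoxA, HoxB and HoxD domains were 0.702, 0.661, 0.794 and 0.656. The longest domain around a single gene was at Pax2, a factor of kidney, eye and ear development, at chr19:44710385-44865266. It was 1 region of 154881 bp in ENRI with 7470 tags and 4.36-fold enrichment (95% interval 4.13 to 4.61), against 2 regions in WENRC that covered 60.6% of it, with 6887 tags and 5.99-fold enrichment (5.60 to 6.40). Pax2 itself had 0.0964 and 0.0236 RPKM in ENRI, against 0.0207 and 0.0282 RPKM in WENRC, so it was near 0 in every library.

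Other patterning genes showed the same combination of 1 long ENRI region over several WENRC regions. The En2 domain, around a homeobox factor of the midbrain and hindbrain border, spanned 104020 bp (chr5:28438435-28542455). ENRI covered 99.7% of it with 1 region at 4.17-fold, and WENRC covered 74.1% with 3 regions at 5.85-fold. The Lbx1 domain, around a homeobox factor of migrating muscle precursors, spanned 97668 bp (chr19:45293403-45391071), with 1 region covering 97.3% at 4.34-fold in ENRI and 2 regions covering 55.3% at 6.31-fold in WENRC. In the Pax2, En2 and Lbx1 domains the longer ENRI region thus went with the lower fold. The Pax3 domain, around a neural crest and muscle factor, was 1 region in each medium (chr1:78127202-78218994), with 4.19-fold enrichment in ENRI and 6.35-fold in WENRC over 100% and 96.0% of its 91792 bp.

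Foxd1, a forkhead factor of the developing kidney stroma, and Rdx, which encodes the membrane linker radixin, went with longer WENRC regions. The Foxd1 domain (chr13:99103082-99203021, 99939 bp) was covered to 60.5% in ENRI at 4.195-fold and to 93.8% in WENRC at 4.76-fold. The Rdx domain (chr9:51809368-51922289, 112921 bp), which also holds the predicted gene Gm6981, was covered to 30.0% in ENRI at 4.22-fold and to 96.6% in WENRC at 4.61-fold. These 2 had density ratios of 0.816 (95% interval 0.781 to 0.852) and 0.935 (0.889 to 0.983), nearer to 1 than Pax2, En2 or Lbx1.

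Of the 12 longest domains, 2 had a broad region in ENRI only. One spanned 105433 bp at chr7:52850815-52956248 over 9 genes, among them Fgf21, a fasting hormone, and Fut1 and Fut2, fucosyltransferases that make blood group H antigens. It held 6206 ENRI tags at 4.305-fold enrichment (95% interval 4.06 to 4.57). No broad region was listed there in WENRC, but 22 narrow WENRC regions covered 51.9% of it, against 68.2% covered by 16 narrow regions in ENRI. The other spanned 97758 bp at chr9:34739949-34837707, held no TSS, and had 5284 ENRI tags at 4.27-fold, with narrow regions over 81.4% in ENRI and 38.7% in WENRC. The mark was thus listed in WENRC in both places at the narrow scale.

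The lowest density ratios of ENRI to WENRC lay in 4 domains with 1 or 2 genes each. The neighbouring homeobox genes Hmx3 and Hmx2, factors of the inner ear and hypothalamus, lay in the domain with the lowest ratio, 0.5001 (95% interval 0.472 to 0.530), at chr7:138672249-138703263. It held 1997 tags over 31014 bp in ENRI, or 21.6 tags per kb per 10M at 5.35-fold, and 2777 tags over 20466 bp in WENRC, or 43.2 at 10.2-fold. Next came the domains of Gdf7, a BMP ligand of the roof plate, at 0.511 (0.463 to 0.563), of Syt2, a synaptic calcium sensor, at 0.522 (0.471 to 0.578), and of Emx1, a forebrain homeobox factor, at 0.546 (0.501 to 0.596). In all 4 the ENRI region was the longer one, and covered 100% of the domain against 38.5% to 69.1% in WENRC.

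The highest ratios lay where the ENRI region was a short part of a long WENRC region. The domain of Ltbp2, an extracellular matrix protein, and D030025P21Rik (chr12:86214275-86227956) had a ratio of 1.52 (1.31 to 1.76), with an ENRI region of 3356 bp at 9.52-fold inside a WENRC region of 13681 bp at 4.05-fold. Those of Ncald, a neuronal calcium sensor (chr15:37718491-37732374), and of Pfn3 and F12, a testis profilin and coagulation factor XII (chr13:55514332-55529666), both had a ratio of 1.36 (1.18 to 1.57). Rax, a homeobox factor of the eye field on chromosome 18, had 1.26 (1.06 to 1.49). Densities at both ends of the range were therefore averaged over different bases in the 2 media. In narrow regions the ratio was below 1 for the Ltbp2 domain (0.771) and the Rax domain (0.811), and it was 1.002 for Ncald and 1.09 for Pfn3 and F12.

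Breakage of a long region into several pieces was uncommon in the broad lists, whose windows were joined over 10000 bp. Shorter gaps could thus not appear, and the median long region was only 20147 bp in ENRI and 18450.5 bp in WENRC. The counts below are therefore limited by that setting. In the narrow lists, domains long in both held a median of 4 regions in each medium, with up to 31 in ENRI and 32 in WENRC. Of the 381 long ENRI regions, 47 overlapped no broad WENRC region (12.3%), 314 overlapped 1 (82.4%), 19 overlapped 2 (4.99%) and 1 overlapped 3 or more. Of the 486 long WENRC regions, 167 overlapped no broad ENRI region (34.4%), 312 overlapped 1 (64.2%) and 7 overlapped 2 (1.44%). None overlapped 3 or more. In most cases the partner was itself long: a region of at least 10 kb was met by 284 of the long ENRI regions (74.5%) and by 286 of the long WENRC regions (58.8%). Broad regions of the other medium covered a median of 81.3% of a long ENRI region and 83.3% of a long WENRC region.

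**Figure D3:**
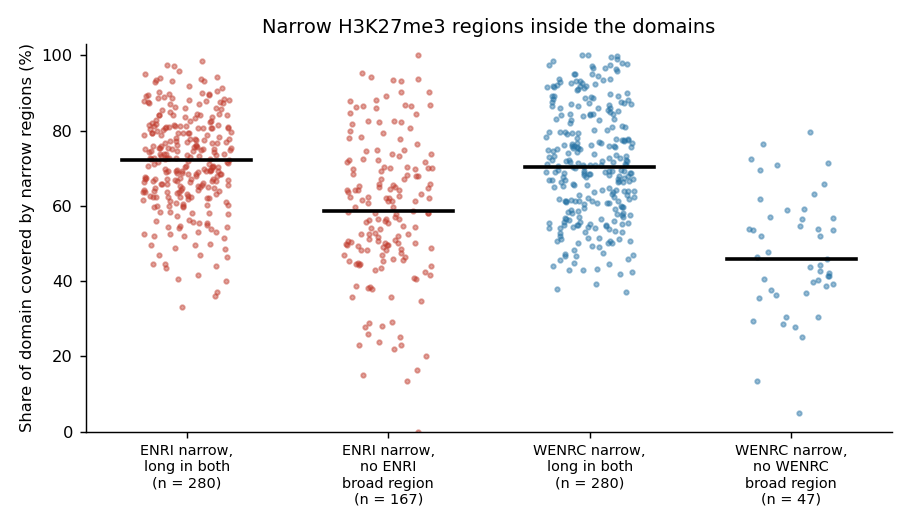
Share of each domain covered by narrow H3K27me3 regions (y axis, percent), 1 point per domain and a bar at the median, for domains long in both media and for domains with no broad region in the medium shown, ENRI at left and WENRC at right. Medians are 72.3% and 58.7% in ENRI, and 70.3% and 45.7% in WENRC.

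Where a medium had no broad region, its narrow list still placed H3K27me3 there. No broad ENRI region overlapped 167 domains, of which 166 held narrow ENRI regions, covering a median of 58.7% of the domain at a median of 5.26-fold over input. No broad WENRC region overlapped 47 domains, and all 47 held narrow WENRC regions, covering a median of 45.7% at 5.38-fold. For comparison, narrow regions covered a median of 72.3% in ENRI and 70.3% in WENRC of the domains long in both, at 5.69-fold and 6.80-fold, as the plot of narrow coverage shows. The broad lists required 4-fold enrichment over input for a region as a whole, and 3146 candidate regions in ENRI and 1579 in WENRC had been removed by that requirement, per the file headers. How many of the 167 and the 47 were among the removed candidates was not tested.

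Most domains held the start of at least 1 gene, in contrast to shorter regions. A TSS lay inside 85.6% of long ENRI regions, against 17.01% of the 5713 shorter ones, and inside 82.9% of long WENRC regions, against 27.1% of the 4523 shorter ones. Longer regions have more room for a TSS, and the part that length plays in these shares was not tested. By domain, 354 held 1 TSS, 122 held 2 or more and 101 held none (17.5%), and 56 of those 101 overlapped no annotated transcript at all. A TSS was inside 91.4% of the domains long in both, 74.2% of those long in ENRI only and 74.0% of those long in WENRC only.

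Genes of transcription factor and signalling families made up a large part of the content. Of 264 genes in 18 such family groups, 159 had a TSS in a domain (60.2%), against 2.85% of all 24016 genes, and they supplied 23.2% of the 685 domain genes. All 39 Hox genes were inside domains, as were all 8 Lhx genes, LIM homeobox factors of neurons and limb, all 6 Dlx genes, homeobox factors of the forebrain and branchial arches, and all 5 Zic genes, zinc finger factors of the neural plate. Coverage was also high for Nkx genes (12 of 14), Irx genes (5 of 6), Pax genes (7 of 9) and a group of Evx, Gbx, Gsx, En, Msx, Meis, Pitx, Otx and Otp genes (16 of 20). It was 10 of 19 for Sox, 11 of 19 for Wnt, 16 of 44 for Fox, and 4 of 33 for Bmp and Fgf. These families were picked with results of the data known, so the counts describe them.

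Domains with a gene of these families were the longer and the more often shared ones. They numbered 114, with a median length of 27651 bp, and 88 of them (77.2%) were long in both media, 2 in ENRI only and 24 in WENRC only. The 362 other domains with a TSS had a median length of 18509 bp, and 168 (46.4%) were long in both, 70 in ENRI only and 124 in WENRC only. The 101 domains without a TSS had a median of 15063 bp, and 24 (23.8%) were long in both. The median fold over input followed the same order: 4.84 in ENRI and 5.92 in WENRC in the domains with a family gene, 4.52 and 5.25 in the other domains with a TSS, and 4.42 and 4.65 in those without one.

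Transcription of the domain genes was low in both media. The 685 genes comprised 569 protein-coding genes, 113 noncoding RNA genes and 3 pseudogenes, each represented by its longest transcript. Their median level was 0.0157 and 0.0264 RPKM in ENRI and 0.0136 and 0.0320 RPKM in WENRC, against 0.330 and 0.228 RPKM in ENRI and 0.394 and 0.386 RPKM in WENRC over all 24016 genes. Genes with a TSS in a shorter broad region were as low, at 0.0181 and 0.0357 RPKM in ENRI and 0.0152 and 0.0391 RPKM in WENRC. No read fell on 149 and 193 of the 685 genes in the ENRI libraries and on 174 and 143 in the WENRC libraries, and 59 had none in any library. The plot of levels by H3K27me3 class shows both classes under the genes outside broad regions.

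**Figure D4:**
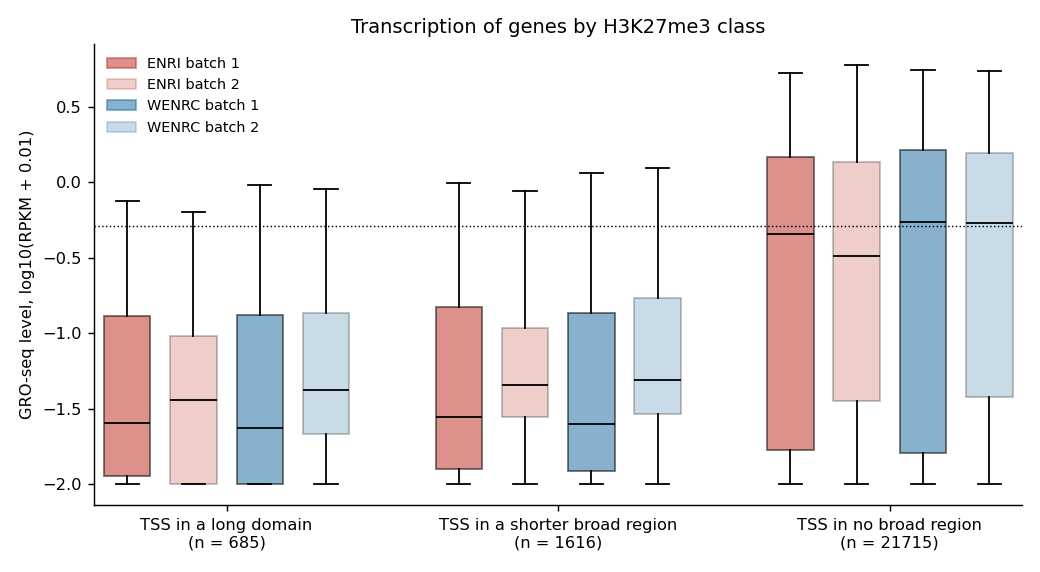
GRO-seq level per gene as log10(RPKM + 0.01), for 685 genes with a TSS in a long domain, 1616 with a TSS in a shorter broad region and 21715 in neither, in each library (ENRI batches 1 and 2, then WENRC batches 1 and 2). Boxes span the quartiles with a line at the median, whiskers run from the 5th to the 95th percentile, and the dotted line is the filter of 0.5 RPKM; in both H3K27me3 classes the upper quartile lies under that line in all 4 libraries.

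A level of at least 0.5 RPKM in at least 2 libraries, the filter set for testing, was reached by 72 of the 685 domain genes (10.51%), by 194 of 1616 genes in shorter regions (12.005%) and by 48.3% of all genes. The share was 12.4% in domains long in both, 9.89% in those long in ENRI only and 6.25% in those long in WENRC only. The TSS itself lay in a narrow region in ENRI for 53 of the 72 genes above the filter (73.6%) and for 527 of the 613 below it (86.0%). In WENRC it did so for 54 of the 72 (75%) and for 539 of the 613 (87.9%). Genes above the filter started nearer to the edge of their domain, at a median of 4410 bp against 6320 bp. The fold over input of their domains was close to that of the others, at a median of 4.82 against 4.69 in ENRI and 5.59 against 5.62 in WENRC.

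The most transcribed domain genes were of mixed kinds. Slc26a10, with a TSS at the side of a domain it shares with Arhgef25 (chr10:126613836-126629195), had 4.75 and 8.03 RPKM in ENRI, against 5.15 and 4.51 RPKM in WENRC, so its media overlapped. Camk2b, a calcium and calmodulin dependent kinase, had 3.20 and 0.796 RPKM in ENRI, against 2.45 and 0.782 RPKM in WENRC, and thus differed by batch more than by medium. Hpca, the neuronal calcium sensor hippocalcin, had 2.29 and 2.40 RPKM in ENRI, against 2.68 and 1.89 RPKM in WENRC, and only 10.8% of its transcript lay in the domain. Nkx6-2, a homeobox factor of the neural tube, was inside its domain with its whole transcript and still had 1.58 and 2.07 RPKM in ENRI, against 2.42 and 2.24 RPKM in WENRC. Its last 276 bp overlap Inpp5a on the opposite strand, and the strand setting of the counting is not given in the sources used here. Prr7, a synaptic membrane protein, had 1.70 and 1.97 RPKM in ENRI and 3.10 and 2.99 RPKM in WENRC, with no overlap of the media.

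No domain gene passed the limma test between the media, but neither did any of the 5 stem cell and 6 tested enterocyte markers. The limma adjusted p was 0.0541 for Lgr5 (log2 change -2.11) and 0.0507 for Apoa1 (log2 change 5.95). A lack of calls thus does not show a lack of change. Limma on log2(RPKM + 0.5) called 17 of 11602 genes at a Benjamini-Hochberg adjusted p of 0.05 (0.147% of those tested; 7 higher in ENRI, 0.0603%, and 10 lower, 0.0862%), and 0 of the 72 domain genes. With the header's batch as a block it called 0 of all genes and 0 of the domain genes. At an unadjusted limma p under 0.05, 5 domain genes were higher in ENRI and 22 lower, against 12% higher and 26.9% lower of all tested genes. Count tests on the recovered reads called more: edgeR's quasi-likelihood test called 10 domain genes, 3 higher in ENRI and 7 lower (all genes: 8.44%, 5.60% and 2.84%), edgeR with the block 4 and 5 (5.32% and 2.72%), and DESeq2 5 and 10 (14.7% and 8.89%). The authors' deposited table has 4 domain genes higher in ENRI and 7 lower at an FDR under 0.05, against 8.16% and 4.57% of all tested genes. Fits with 1 library left out leave 1 library in a medium, so only their log2 changes are used below.

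The median log2 change of the 72 tested domain genes was -0.32 (ENRI over WENRC), beside -0.21 over all tested genes, with 19 above 0 and 53 below (73.6%, against 65.7% of all). Without the ENRI batch 1 or batch 2 library that median was -0.57 or -0.22, beside -0.27 or -0.15 over all tested genes. Without the WENRC batch 1 or batch 2 library it was -0.29 or -0.50, beside -0.20 or -0.22 over all tested genes. With median centring it was -0.18 and after quantile normalization -0.12, beside -0.06 and -0.04 over all tested genes. Both ENRI libraries lay below both WENRC libraries for 36 of the 72, where 49.7% of all tested genes did so, and above for 9, where 23.0% did. The median was -0.45 in domains long in both (52 genes), -0.26 in those long in ENRI only (9) and -0.07 in those long in WENRC only (11). For the 194 tested genes in shorter broad regions it was -0.47. A gene can pass the filter through 1 medium alone, so these figures describe the genes that passed and are no measure of the 685.

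**Figure D5:**
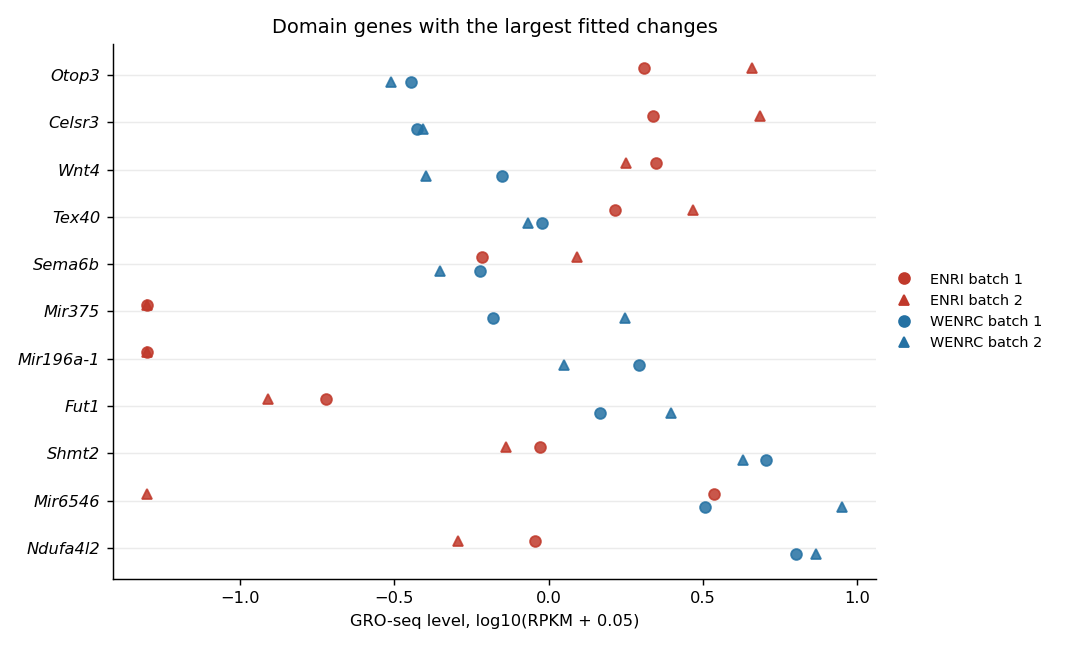
GRO-seq level as log10(RPKM + 0.05) of tested domain genes from among the 6 with the most positive and the 6 with the most negative fitted change, 1 symbol per library (circles batch 1, triangles batch 2; ENRI red, WENRC blue). In Otop3, Celsr3 and Wnt4 both ENRI symbols lie right of both WENRC symbols, and in Ndufa4l2, Shmt2 and Fut1 they lie left; none passed limma at an adjusted p of 0.05.

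Of the 6 genes with the most positive changes, Otop3, Wnt4, Tex40 and Sema6b had a TSS inside a broad region of WENRC and outside those of ENRI. Otop3, a proton channel, had 2.00 and 4.50 RPKM in ENRI, against 0.308 and 0.257 RPKM in WENRC, and the media did not overlap. Its log2 change was 2.18 ± 0.36 (SE; limma adjusted p = 0.0560), the quasi-likelihood edgeR adjusted p was 0.0424, and the authors' deposited table gives a log2 change of 3.62 at an FDR of 8.83e-09. Its TSS lay inside the broad and narrow regions of WENRC and outside those of ENRI, in the domain at chr11:115165575-115205738, of which broad regions covered 50.2% in ENRI and 78.2% in WENRC. Wnt4, a secreted Wnt ligand, had 2.18 and 1.73 RPKM in ENRI, against 0.655 and 0.351 RPKM in WENRC, with no overlap, a log2 change of 1.30 ± 0.21 and a limma adjusted p of 0.0560. Its domain, chr4:136830070-136842360, was covered to 18.9% by a broad region in ENRI and to 100% in WENRC, and by narrow regions to 22.2% and 90.6%. Its TSS was inside the broad WENRC region but in no narrow region of either medium. The CG-rich window shown above is the one around this start.

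The TSS of Celsr3 lay inside the broad and narrow regions of both media, in a domain (chr9:108725049-108737237) covered to 92.4% in ENRI and 100% in WENRC at 4.63-fold and 4.48-fold. It had 2.14 and 4.81 RPKM in ENRI, against 0.324 and 0.341 RPKM in WENRC, with no overlap, a log2 change of 2.17 ± 0.36 and a limma adjusted p of 0.0560. Its transcript ran out of the domain, with 32.2% of its length inside. Tex40, a sperm ion channel subunit, and Sema6b, an axon guidance protein, had limma log2 changes of 0.98 ± 0.27 and 0.47 ± 0.27 (adjusted p = 0.0807 and 0.257), and 13.2% and 8.78% of their transcripts lay in a domain.

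Over all tested domain genes, the 15 with a TSS inside broad regions of WENRC but not of ENRI had a median log2 change of 0.04, and the 7 with the reverse arrangement 0.05. The 50 with a TSS inside broad regions of both media had a median of -0.48, with 7 above 0 and 43 below. The 6 most negative changes were those of Ndufa4l2, Mir6546, Shmt2, Fut1, Mir196a-1 and Mir375, and the microRNA genes among them are described below. Ndufa4l2, a mitochondrial protein induced under low oxygen, had 0.852 and 0.458 RPKM in ENRI, against 6.27 and 7.32 RPKM in WENRC, and Shmt2 had 0.890 and 0.679 RPKM in ENRI, against 5.03 and 4.23 RPKM in WENRC. Both were lower in both ENRI libraries, with log2 changes of -2.68 ± 0.23 and -1.998 ± 0.17 (limma adjusted p = 0.0522 for each). In the authors' deposited table the changes are -3.15 at an FDR of 7.53e-07 for Ndufa4l2 and -2.32 at 1.02e-05 for Shmt2. The genes end against each other with an overlap of 31 bp, so reads in that short stretch cannot be assigned. Their domain, chr10:126943952-126974245, was 30293 bp long and covered to 99.2% in ENRI and 93.3% in WENRC, at 4.16-fold and 5.62-fold. Its density ratio was 0.720 (95% interval 0.673 to 0.771), and 0.932 when scaled to the tags in broad regions.

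Fut1 and Izumo1, a sperm protein of egg fusion, lay side by side in the 105433 bp domain that was long in ENRI only. Fut1 had 0.139 and 0.0734 RPKM in ENRI (14 and 4 reads), against 1.42 and 2.44 RPKM in WENRC (127 and 78 reads), a log2 change of -1.97 ± 0.24. Izumo1 had 0.0316 and 0.0233 RPKM in ENRI, against 0.755 and 1.65 RPKM in WENRC, a log2 change of -1.64 ± 0.29, and the limma adjusted p was 0.0560 for both. Neither overlapped between the media. Of the other genes in the domain, Car11 alone was above the filter, and its media overlapped. Car11, a carbonic anhydrase related protein, had 0.687 and 0.580 RPKM in ENRI and 0.668 and 0.530 RPKM in WENRC, and Fut2, under the filter, had 0.667 and 0.0818 RPKM in ENRI and 0.452 and 0.358 RPKM in WENRC. The TSS of Fut1 was in a narrow region of ENRI and not of WENRC, while that of Izumo1 was in none of either.

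Smaller differences in the same direction were seen at 3 further loci called by the count tests. The noncoding gene 9130024F11Rik had 0.525 and 0.340 RPKM in ENRI, against 1.82 and 1.63 RPKM in WENRC. Crnde, a noncoding RNA that starts beside Irx5, had 0.192 and 0.223 RPKM in ENRI, against 0.583 and 0.586 RPKM in WENRC, and Irx5 itself 0.272 and 0.623 RPKM in ENRI, against 0.814 and 1.48 RPKM in WENRC. Hoxb9 had 0.391 and 0.530 RPKM in ENRI, against 1.61 and 1.69 RPKM in WENRC. In each the ENRI libraries lay below the WENRC libraries. These 3 called genes, with Celsr3, Otop3, Wnt4, Ndufa4l2, Shmt2, Fut1 and Izumo1, are the 10 domain genes past the threshold in edgeR without the block, in DESeq2 and in the authors' deposited table alike, and 8 of the 10 were also past it in edgeR with the block. With the block the edgeR adjusted p was 0.0557 for 9130024F11Rik and 0.0525 for Hoxb9.

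The microRNA genes among the named changes rested on very few reads. Mir196a-1 had 0 and 0 reads in ENRI and 5 and 1 in WENRC, Mir375 had 0 and 0 in ENRI and 1 and 1 in WENRC, and Mir6546 had 6 and 0 in ENRI and 5 and 5 in WENRC. Their hairpins are so short that a single read gives a large RPKM, and none was past the threshold in edgeR or DESeq2.

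Of the other family genes, few were above the filter, and none was called by limma. They included 10 Hox genes (1 with a log2 change above 0 and 9 below), Pax6, Foxc1, Sox21, Nkx6-2 and Irx5, all with a change below 0, and Wnt4 above 0. Foxc1, a forkhead factor of mesenchyme and eye, had 1.20 and 0.715 RPKM in ENRI, against 1.95 and 1.33 RPKM in WENRC. Sox21, a neural factor, had 1.00 and 0.0333 RPKM in ENRI, against 1.59 and 1.17 RPKM in WENRC, so the ENRI libraries were far apart. Cdkn2a, which encodes cell cycle inhibitors and is a classic PRC2 target, lay whole in a domain and had 0.610 and 0.192 RPKM in ENRI, against 0.152 and 0.306 RPKM in WENRC, under the filter.

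The genes that write, bind and erase the mark were transcribed in both media. All 11 PRC2 genes were above the filter, 1 with a log2 change above 0 and 10 below, with a median of -0.52 beside -0.21 over all tested genes, and limma called none. Ezh2, the catalytic subunit, had 1.04 and 0.651 RPKM in ENRI, against 1.71 and 1.85 RPKM in WENRC, a log2 change of -0.77 ± 0.18. The adjusted p of Ezh2 was 0.0676 in limma, 0.0965 in edgeR without the block and 0.0447 in DESeq2. The authors' deposited table gives it an FDR of 0.160. Suz12, a core subunit, had 1.52 and 1.06 RPKM in ENRI, against 2.22 and 2.22 RPKM in WENRC. Of 10 PRC1 genes, 3 were above 0 and 7 below, with a median of -0.35 and none called. Cbx8, the PRC1 subunit that binds the mark, was itself a domain gene, in a domain long in WENRC only (chr11:118895599-118917792), and had 1.23 and 2.81 RPKM in ENRI, against 0.969 and 1.70 RPKM in WENRC, with overlap. The demethylase genes Kdm6a and Kdm6b both had changes above 0, with a median of 0.17, and were not called.

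Markers of other cell types were low, apart from the mesenchymal gene Acta2 and the immune gene Cd68. Endothelial genes summed to at most 0.0647 RPKM and nerve genes to at most 0.134 RPKM in any library. Mesenchymal genes summed to 0.921 and 0.793 RPKM in ENRI and 1.48 and 0.976 RPKM in WENRC. Most of this came from Acta2, with 0.838 and 0.615 RPKM in ENRI and 1.41 and 0.806 RPKM in WENRC. The 4 immune genes summed to 5.25 and 5.51 RPKM in ENRI and 13.1 and 16.5 RPKM in WENRC, nearly all from Cd68, while Ptprc and Cd3e were at or near 0. The part of cell mixture in the values above was not tested.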

How the data were processed

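Members, families and gene lists were chosen with earlier results of these data known. Per the submitters' processing notes, reads were checked with FastQC, aligned to mm9 with Bowtie (GRO-seq) or Bowtie2 (ChIP-seq) and processed with HOMER (4.3 for GRO-seq). H3K27me3 regions were called by the authors in each library against input DNA, per the file headers: broad lists used 1000 bp windows joined over 10000 bp at an FDR of 0.001, and narrow lists 500 bp windows, 1000 bp apart, at a Poisson p-value of 0.001. Both asked for 4-fold over input and for 4-fold over the surrounding 10000 bp, each at a p-value of 0.0001. Per the headers, the requirement over the surrounding 10000 bp removed 0 candidates in every list. The deposited lists give tags per 10M as a signal, the score of the best window and the fold over input. Tag counts were recovered from the deposited signal and library totals of 29.8M tags in ENRI and 31.4M in WENRC (27.2M and 27.4M in input), to within 0.155 of a whole tag. Ratios of tags have exact (Clopper-Pearson) 95% intervals. Coordinates are those of the files.

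GRO-seq values were deposited as scaled read signal per RefSeq transcript, counted by the authors over gene bodies with HOMER, each column summing to 20.0M over 33022 transcripts. Whole reads were recovered from the deposited signal (100% of values within 0.1 of a whole read): 29128101 and 15787828 in ENRI, 25839484 and 9245915 in WENRC. RPKM was computed from the signal, and 4 other columns of per-sample values were not used. The longest transcript stood for each of 24016 symbols. Genes with 0.5 RPKM in 2 libraries were tested with limma 3.58.1 (R 4.3.3, mean trend) on log2(RPKM + 0.5), and a log2 change on this scale understates that of low genes. edgeR 4.0.16 (quasi-likelihood) and DESeq2 1.42.0 on recovered read counts were alternatives. Log2 fold changes and p-values of the authors' deposited table came, per the file headers, from edgeR with batch as a term. Columns name a medium and a batch, not a mouse, and whether the 2 libraries of a medium came from separate cultures is given only by the mouse number in the titles. The header pairs the batches, though deviations from the group means of batch 1 in the media correlated at 0.0126 over 11602 genes. Where the block changed a call, its value is given beside the result. Domains and genes named were the 12 longest domains, the 4 with the highest and lowest ENRI to WENRC density ratio, the 4 with most regions in the other medium, the 8 highest genes per medium, and the 6 largest changes per direction; some of those genes are not reported here, and Car11, Fut2, Izumo1, Irx5, Hoxb9, Crnde and 9130024F11Rik were added after their values were seen. Scripts were tested on simulated data. Histone H3 samples were not analysed here.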

Additional observations from a re-analysis of the deposited data

How the results depend on the processing

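Counts of called genes depended strongly on the test. Over all genes, the 17 limma calls became 1 with a pseudocount of 0.1, 0 without the filter, 1491 with a filter of 10 reads, 929 after quantile normalization, 979 with edgeR, 2738 with DESeq2 and 1477 in the authors' deposited table. Leaving out 1 library gave 0 to 5794. With the replicate block, pairing the batches, limma called 0 and edgeR 932. Among domain genes, 0 calls became 17 of 329 with the filter of 10 reads, 8 after quantile normalization, 10 with edgeR, 9 with edgeR and the replicate block, 15 with DESeq2 and 11 in the authors' deposited table, and 0 to 34 when 1 library was left out. In edgeR the block took 9130024F11Rik and Hoxb9 out of the called domain genes. The cause of these differences was not tested. Over all tested genes the median log2 change of -0.21 became -0.06 with median centring and -0.04 after quantile normalization, and over the domain genes -0.32 became -0.18 and -0.12. It was -0.00397 without the filter, -0.0289 with the filter of 10 reads, and -0.57 to -0.22 with 1 library left out.

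Limits of 8 kb or 15 kb gave 726 or 388 domains. Regions of at least 6-fold over input left 151 domains and 243 genes, with 9.93% long in both and a median coverage of 0% by the other medium. That coverage was 78.9% at 8 kb and 69.3% by narrow regions, against 82.4%. Genes under the filter were 86.7% of those within 2 kb of a domain, against 89.5%. The density ratio over the 363 domains with broad regions in both media, 0.781, became 0.831 as a ratio of folds, 0.811 in narrow regions and 1.01, the opposite side of 1, when scaled to the tags in broad regions. Of 165 log2 changes of the 12 named genes under alternatives, those with 1 library left out included, 0 changed sign. Depth limits the low genes most: 59 domain genes had no read in any library. The alternatives on the authors' table, narrow regions and transcripts inside domains were chosen after seeing the data.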

Other observations

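Long stretches of H3K27me3 were also present in the narrow lists outside the domains. Of 271 narrow regions of at least 10 kb in ENRI, 17 lay outside every domain, as did 15 of 283 in WENRC. The other long narrow regions lay in or touched a domain.

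Some domain genes differed between the batches more than between the media. Hoxd3 had 0.995 and 0.051 RPKM in ENRI batches 1 and 2, against 0.998 and 0.063 RPKM in WENRC batches 1 and 2. Camk2b followed the same split, with its batch 1 library higher in both media. Over all tested genes the log2 values correlated at 0.874 between the ENRI libraries and 0.949 between the WENRC libraries, given as a description across genes, which are not independent replicates.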
